A study of Mus musculus with 14 samples.

Results

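H3K27ac, the acetylated form of lysine 27 of histone H3, was compared between lineage-depleted bone marrow progenitors of mice lacking the histone demethylase UTX and wild-type progenitors. The regions were found by merging the overlapping H3K27ac islands of 2 libraries labelled UTX_KO (KO) and 2 labelled UTX_WT (WT), where an island is a broad stretch of enriched reads called in 1 library. Of 34766 merged regions, 18820 held an island in all 4 libraries. These 18820 regions, with 92.1% of all island reads, are the subject here. Both groups carried the C57BL/6 background and came from marrow depleted of mature cells with the Miltenyi Lineage Cell Depletion Kit. The series describes the mutants as Utx-/- and the controls as Utx+/+. The promoter driving any Cre, the age and sex of the mice, and whether animals were pooled are not given in the sources used here. Nothing in the labels says that replicates 1 and 2 were separate animals, so the p-values measure only the spread between these libraries.

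UTX, encoded by the X-linked gene Kdm6a, removes methyl groups from lysine 27 of histone H3 and is a subunit of the COMPASS-like complexes that monomethylate lysine 4 at enhancers. Acetylation of lysine 27 marks active promoters and active enhancers, and the same lysine cannot be acetylated and trimethylated at once. In marrow progenitors, GATA factors and their partners act at enhancers of erythroid and megakaryocyte genes, and ETS factors, PU.1 among them, act at enhancers of myeloid and lymphoid genes.

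Kdm6a itself had 2 tested regions. The region at its start (chrX:18160801-18168800) held 170 and 94.6 reads scaled to the library's island reads (rpm, reads per 1000000) in WT replicates 1 and 2, and 160 and 157 rpm in KO replicates 1 and 2. The intragenic region (chrX:18185001-18192200) held 7.61 and 7.80 rpm in WT and 8.67 and 15.2 rpm in KO. Neither region passed the test (log2 fold change 0.27 and 0.62, adjusted p = 0.375 and 0.171), and acetylation around a start site is no check of a deletion further along the gene. Kdm6b, which encodes the related demethylase, had 1 region with 248 and 197 rpm in WT against 270 and 295 rpm in KO, which was not called under both scalings described below. No library had an island on chromosome Y, so Uty, the Y-linked relative of Kdm6a, gave no value.

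Library totals ranged from 9330823 to 15256696 island reads and covered 149 to 177 Mb, and 89.4 to 94.8% of each library's island reads lay in the tested regions. Across the regions, Pearson's r of log2 reads was 0.968 between the WT libraries, 0.970 between the KO libraries and 0.872 to 0.883 between genotypes. All 6 progenitor markers (Kit, Cd34, Flt3, Meis1, Mpo, Runx1) carried islands in all 4 libraries, but their levels did not move together. Kit, Cd34, Flt3 and Meis1 were lower in both KO libraries than in either WT library (Meis1, 354 and 333 against 268 and 205 rpm). Mpo (241 and 261 against 386 and 319 rpm) and Runx1 (1079 and 1167 against 1214 and 1188 rpm) were higher. The sums, of which Runx1 is the largest part, were 2160 and 2271 rpm in WT and 2255 and 2062 rpm in KO. Markers of cells that lineage depletion removes were also marked and differed in level between genotypes. The 6 red cell markers summed to 271 and 365 rpm in WT and to 40.2 and 57.1 rpm in KO. The 6 B cell markers summed to 181 and 163 rpm in WT and to 475 and 679 rpm in KO. Of 6 granulocyte markers, 2 were marked in each WT library and 5 and 4 in the KO libraries (64.0 and 102 rpm against 212 and 169 rpm), with Ly6g at 0 throughout. T cell markers summed to 34.5 and 26.0 rpm in WT and 71.0 and 48.4 rpm in KO, with Cd3e, Cd4 and Cd8a at 0. NK cell markers summed to 0 in both WT libraries and to 22.5 and 6.38 rpm in KO, with Ncr1 at 0. Endothelial and stromal markers summed to 272 and 270 rpm in WT and 397 and 419 rpm in KO, nearly all of it from Pecam1 (247 and 250 against 363 and 375 rpm). Of the 8, Kdr was lower in KO (10.2 and 8.85 against 4.81 and 6.11 rpm), and Emcn, Cxcl12, Lepr, Col1a1 and Col1a2 were at 0. In such bulk samples a change in the share of a cell type and a change in signal per cell cannot be told apart, and the part of these markers in the results below was not tested.

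The deposited files give positions without bases, so the sequences printed are the 250 bases before start sites that lie in called regions, from RefSeq on build GRCm38.p6. They are shown because the erythroid and B cell gene groups moved in opposite directions, and each is 1 start site whose stretch holds the searched motif, chosen after the matches were known. Capitals mark AGATAA on either strand, a core of the GATA factor site, in 3 genes whose regions fell, and GAGGAA on either strand, a core bound by PU.1, in 1 gene whose region rose. Tal1, a partner of GATA factors, lies at chr4:115056176-115056425 on the plus strand. Epor, the erythropoietin receptor, is read from chr9:21963577-21963826 on the minus strand. Steap3, an iron reductase of red cell precursors, is read from chr1:120271081-120271330 on the minus strand. Irf4, a factor of lymphoid and dendritic cells, lies at chr13:30748983-30749232 on the plus strand.
Tal1: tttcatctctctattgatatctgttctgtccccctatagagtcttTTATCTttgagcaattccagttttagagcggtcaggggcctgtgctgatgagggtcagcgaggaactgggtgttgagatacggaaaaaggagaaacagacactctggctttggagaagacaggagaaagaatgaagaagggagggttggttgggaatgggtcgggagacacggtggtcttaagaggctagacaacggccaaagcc
Epor: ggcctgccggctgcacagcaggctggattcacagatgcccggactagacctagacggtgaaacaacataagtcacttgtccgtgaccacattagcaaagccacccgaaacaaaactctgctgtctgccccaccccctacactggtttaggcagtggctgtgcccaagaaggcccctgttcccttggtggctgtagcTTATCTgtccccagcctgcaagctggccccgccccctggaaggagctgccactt
Steap3: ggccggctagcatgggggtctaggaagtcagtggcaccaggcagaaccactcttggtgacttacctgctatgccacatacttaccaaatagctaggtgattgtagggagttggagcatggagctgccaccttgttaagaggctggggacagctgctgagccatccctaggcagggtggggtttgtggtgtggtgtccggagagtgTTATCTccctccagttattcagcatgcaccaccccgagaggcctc
Irf4: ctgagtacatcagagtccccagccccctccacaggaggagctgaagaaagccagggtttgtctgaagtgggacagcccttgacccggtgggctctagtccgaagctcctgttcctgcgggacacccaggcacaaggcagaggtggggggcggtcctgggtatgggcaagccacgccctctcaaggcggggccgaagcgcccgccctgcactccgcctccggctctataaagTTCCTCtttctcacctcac

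The Tal1 region held 347 and 344 rpm in WT and 127 and 107 rpm in KO (log2 fold change -1.56, SE 0.10, adjusted p = 8.66e-06). At Epor the values were 58.5 and 58.3 rpm against 9.01 and 11.6 rpm (-2.51, SE 0.19, adjusted p = 2.08e-05), and at Steap3 165 and 171 rpm against 69.8 and 86.2 rpm (-1.11, SE 0.12, adjusted p = 0.000118). In all 3 genes both KO libraries lay below both WT libraries. The Irf4 region held 6.32 and 8.39 rpm in WT and 33.1 and 47.7 rpm in KO (2.44, SE 0.26, adjusted p = 0.000111), with both KO libraries above both WT libraries. Of the 16 genes of the GATA and erythroid list with a start site in a region that fell, 5 held AGATAA (Epor, Ldb1, Rhd, Steap3 and Tal1). Counted by start site, as in the shares that follow, this was 5 of 24. Over all genes, AGATAA stood in 7.85% of 1707 start sites in regions that fell, in 6.10% of 1410 in regions that rose, in 6.02% of 13425 in all tested regions, and in 9.99% of all 32851 start sites in the table. GAGGAA stood in 26.5% of start sites in regions that rose, 22.0% in regions that fell and 23.0% in tested regions, against 23.2% of all start sites. CCGGAA, a core shared by many ETS factors, stood in 15.9% of start sites in regions that rose and 16.8% in regions that fell, against 23.7% in regions that were not called and 12.0% of all. In the B cell list, GAGGAA stood in 2 of 7 start sites in regions that rose (Cd79a and Irf4) and CCGGAA in 0 of 7. In the ETS family list these counts were 1 of 3 and 0 of 3. A match describes the letters of the window and is no measure of binding.

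Across the genome the mutant progenitors showed both gains and losses of H3K27ac. With libraries scaled to their island reads, 3268 regions were higher (17.4%) and 2069 lower (11.0%) in KO at an adjusted p below 0.05 in edgeR's quasi-likelihood test, 28.4% of the 18820 tested. This scaling put the median log2 fold change of all regions at 0.12. Scaling by TMM, which centres the bulk of regions at no change, gave 2258 higher (12.0%) and 2631 lower (14.0%). A region is therefore called risen or fallen below only if it passed in the same direction under both scalings, which held for 2258 higher (12.0%) and 2053 lower (10.9%) regions, 22.9% in all. Fold changes are given on the island-read scale, with 0.12 as the level of the typical region. Changes were mostly moderate: among the regions called under both scalings, 1062 exceeded a 2-fold rise and 888 a 2-fold fall, while 94 exceeded a 4-fold rise and 184 a 4-fold fall. In 12396 regions (65.9%) the WT and KO libraries did not overlap. The count of rises depended on WT replicate 2, the deepest library: without it 1940 regions were higher and 1458 lower under island-read scaling.

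**Figure D1:**
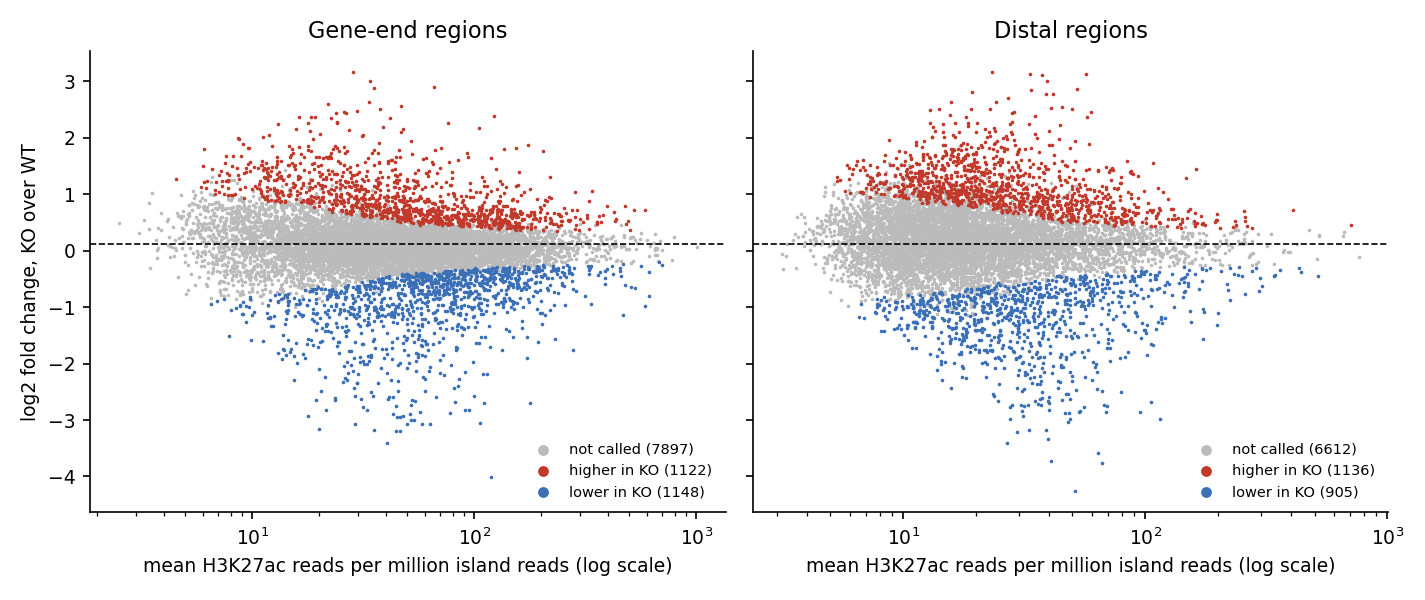
Log2 fold change (KO over WT) against the mean H3K27ac level on a log axis, for gene-end regions (left) and distal regions (right), with 1 point per region and the median of all regions as a dashed line. Red and blue points are regions called higher or lower under both scalings: 1122 and 1148 at gene ends and 1136 and 905 at distal sites.

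The share of regions called grew with the level of the mark. In the fifth of regions with the lowest mean rpm 8.05% rose and 3.27% fell, and in the fifth with the highest 14.3% rose and 17.9% fell. By width the gradient was steeper, with 6.78% risen and 2.60% fallen in the fifth with the narrowest regions against 17.8% and 24.5% in the widest. Width is that of the islands merged over all libraries, so islands that differed in length between genotypes widen their own region. The width gradient is therefore in part built in. Regions with more reads also give the test more power, which was not separated from either gradient. Chromosome X, which carries Kdm6a, had 501 tested regions, of which 9.78% rose and 4.39% fell.

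A read sum over islands can change because more of a region was called or because the called part held more reads, and both moved here. Regions that rose were covered over a median of 4400 bp in WT and 7550 bp in KO. Their median log2 change was 0.97 for reads, 0.63 for covered length and 0.35 for reads per covered length. Regions that fell shrank from 10300 to 5800 bp, with median changes of -0.91, -0.61 and -0.34. Covered length moved in the direction of the reads in 96.5% of the regions that rose and 95.7% of those that fell, and density did so in 81.4% and 76.2%. Tested per covered length in edgeR, 94 regions were higher (0.499%) and 129 lower (0.685%), 1.18% of those tested. Most calls thus did not pass per covered length. Where islands differ in length that measure compares different bases, so it cannot separate spread of the mark from a change in signal. The covered length or the test per covered length is given below with the regions the text turns on. The study's caller set islands in each library separately, and how island borders depend on its settings was not tested.

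**Figure D2:**
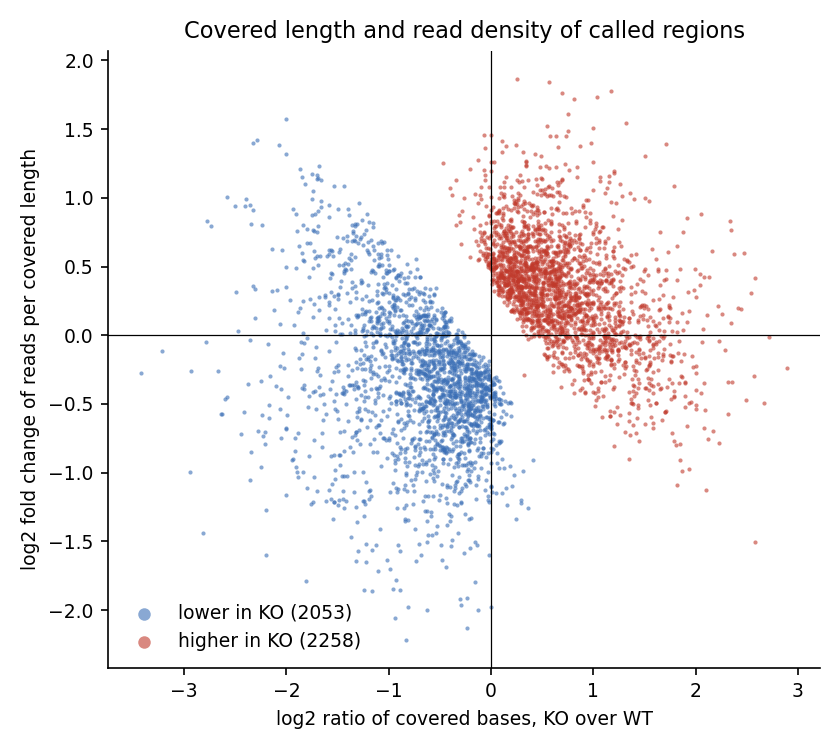
Log2 ratio of covered bases (horizontal) and log2 fold change of reads per covered length (vertical), KO over WT, with 1 point per called region. The 2258 regions that rose lie mostly to the right of zero and the 2053 that fell mostly to the left, and density lies on the side of the change in 81.4% of rises and 76.2% of falls.

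Distal regions, those beyond 2 kb from the ends of every protein-coding gene, made up 8653 of the 18820. Of these 1136 rose (13.1%) and 905 fell (10.5%), with a median log2 fold change of 0.18. Of 10167 gene-end regions 1122 rose (11.0%) and 1148 fell (11.3%), with a median of 0.08. Island-read scaling alone, with all 4 libraries, gave 1656 distal regions higher and 917 lower. At gene ends it gave 1612 higher and 1152 lower. These are the counts to set beside the 2 island-read counts given below. Under island-read scaling without WT replicate 2, 1040 distal and 900 gene-end regions were higher. Inside the bodies of protein-coding genes 711 of 4767 distal regions rose and 581 fell. Between protein-coding genes, called intergenic here, 425 of 3886 rose and 324 fell. Non-coding genes did not enter these classes. The 193 regions over 200 kb from any protein-coding gene had a median of 0.28, with 24 risen and 10 fallen. Distal sites held more of the strongest changes than gene ends: 656 exceeded a 2-fold rise and 495 a 2-fold fall, against 406 and 393. They also had a lower median level, 18.5 against 43.7 rpm. Over all regions, 263 of 303 rises exceeded 2-fold in the fifth with the lowest mean rpm and 70 of 537 in the highest. For falls these counts were 73 of 123 and 139 of 673. Position was not separated from level. These shares are descriptions, and no test of the difference between classes was made. Some distal regions hold a non-coding or alternative start site: with every region holding any annotated start site left out, 1399 distal regions were higher and 717 lower under island-read scaling.

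Neighbouring regions moved together. Between adjacent regions less than 5 kb apart, the log2 fold changes correlated with Pearson's r = 0.384 over 3750 pairs, and where both were called 306 of 344 pairs (89.0%) had the same direction. The correlation was 0.316 at 5 to 20 kb, 0.235 at 20 to 50 kb, 0.157 at 50 to 200 kb and 0.032 at 200 kb or more, where 67 of 115 called pairs (58.3%) matched in direction. Per covered length the same correlation was 0.109 below 5 kb and -0.053 at 200 kb or more. All pairs share the same 4 libraries, and adjacent regions can be parts of 1 enriched stretch, so these values describe the libraries. At 2930 genes with both a gene-end and a distal region, the change at the gene end correlated with the median change of the distal regions with r = 0.386 (0.076 per covered length). Where a gene end rose, the distal median lay above the median of all regions in 357 genes and below it in 98, and where a gene end fell the distal median lay below it in 257 genes and above it in 99.

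**Figure D3:**
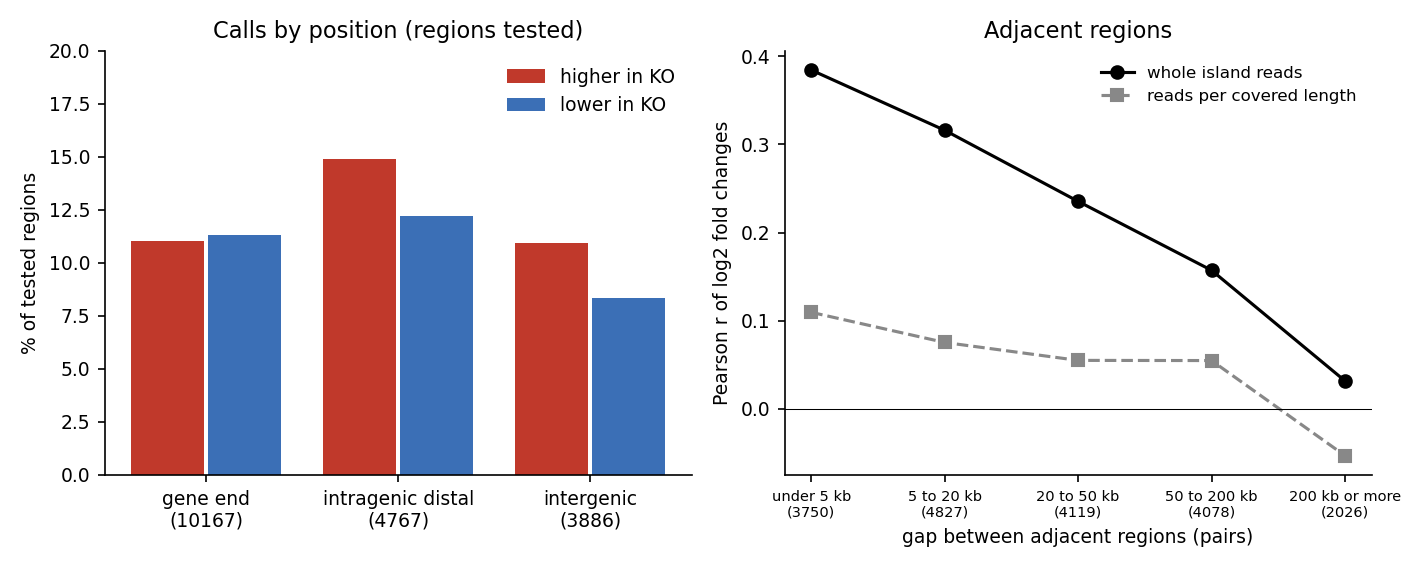
Left, the percentage of tested regions that rose or fell, by position, with bars from 0. Right, Pearson's r between the log2 fold changes of adjacent regions by the gap between them, falling from 0.384 below 5 kb to 0.032 at 200 kb or more for whole island reads.

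Runs of at least 4 consecutive tested regions called in the same direction numbered 38 for rises and 30 for falls. The longest held 8 regions: one lay across Chd7 (chr4:8689201-8862800) and the other across Nedd9 and Tmem170b (chr13:41324001-41555000). Among falls the longest run held 7 regions over 234 kb from Fth1, the ferritin heavy chain, to the fatty acid desaturase genes Fads2 and Fads1 (chr19:9951201-10184800, median log2 fold change -1.09). A run of 4 falls with a median of -1.34 reached from the interval between Pdgfra and Kit into Kit (chr5:75311801-75617800). A run of 6 rises with a median of 1.19 crossed the region of Adam6b, a gene within the immunoglobulin heavy chain locus (chr12:113150601-115025800).

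The 10 largest distal falls, ranked among called regions with no overlap between genotypes and a mean of at least 20 rpm in the higher one, had log2 fold changes from -4.27 to -3.03. Kit, the stem cell factor receptor of stem and progenitor cells, was the nearest gene to one of them. This region (chr5:75453401-75469200) lay 114 kb upstream of the Kit start site. It held 47.3 and 59.3 rpm in WT and 5.55 and 5.93 rpm in KO (-3.22, SE 0.22, adjusted p = 1.1e-05), and its covered length went from 11.6 and 14.6 kb to 2.0 and 2.2 kb. Both KO libraries kept only a short island there, and the change per covered length did not pass (-0.57, adjusted p = 0.302). The others were nearest to Gpbp1, Srbd1, Fig4, Tlcd4, Slc16a10, Ercc6l2, Cpeb4, Ptpn14 and Phc1. The lowest value was nearest to Gpbp1 (chr13:111543601-111559200), with 87.5 and 106 rpm in WT and 4.20 and 6.02 rpm in KO (-4.27, SE 0.21, adjusted p = 4.1e-06). Srbd1 had an intragenic region (chr17:86019601-86034600) with 121 and 125 rpm in WT and 10.5 and 7.46 rpm in KO (-3.76, SE 0.17). Phc1, which encodes a subunit of Polycomb repressive complex PRC1, had a region 52.9 kb upstream (chr6:122387801-122398400) with 84.8 and 86.5 rpm in WT and 8.94 and 12.2 rpm in KO (-3.03, SE 0.18). Of the 10, those nearest to Gpbp1, Srbd1, Tlcd4 and Phc1 also fell per covered length (adjusted p = 0.031, 0.018, 0.014 and 0.032). Of the 10, those nearest to Gpbp1, Tlcd4, Cpeb4 and Phc1 hold an annotated start site, although they lie beyond 2 kb from the ends of protein-coding genes or inside one.

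The 10 largest distal rises had log2 fold changes from 2.78 to 3.17 and were nearest to Ttc7b, Prep, Spata16, Mad1l1, Zcchc7, Stambpl1, Nedd9, Gpatch2, Il5ra and Mreg. Il5ra encodes the interleukin-5 receptor alpha chain of eosinophils and some B cells. Its intragenic region (chr6:106718801-106738800) held 13.4 and 8.13 rpm in WT and 71.9 and 73.4 rpm in KO (2.78, SE 0.22, adjusted p = 2.6e-05), with coverage of 4.8 and 2.8 kb against 19.4 and 14.6 kb. The gene-end region of Il5ra rose with it, from 18.8 and 8.85 rpm to 80.7 and 78.6 rpm (2.57, SE 0.27, adjusted p = 0.000114), and passed per covered length (1.72, adjusted p = 0.014), which the intragenic one did not (0.62, adjusted p = 0.302). In both regions the KO libraries lay above the WT libraries. Zcchc7 is the neighbour of Pax5, the B cell identity factor, and its intragenic region (chr4:44877801-44897000) held 9.11 and 8.32 rpm in WT and 54.4 and 85.2 rpm in KO (3.002, SE 0.24, adjusted p = 2.5e-05). The region at the far end of Zcchc7 went the other way, from 66.0 and 74.5 rpm to 7.18 and 15.9 rpm (-2.63, SE 0.29, adjusted p = 0.000147). Neither Zcchc7 region passed per covered length (0.42 and -0.58, adjusted p = 0.546 and 0.306). Prep, a prolyl peptidase gene, had the largest rise that also passed per covered length (chr10:45097601-45115400), from 12.7 and 10.8 rpm to 79.3 and 126 rpm (3.14, SE 0.23, and 1.39 per covered length, adjusted p = 0.031). Gpatch2 was the only other of the 10 to pass per covered length (adjusted p = 0.044). The regions at Ttc7b and Stambpl1 hold an annotated start site.

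**Figure D4:**
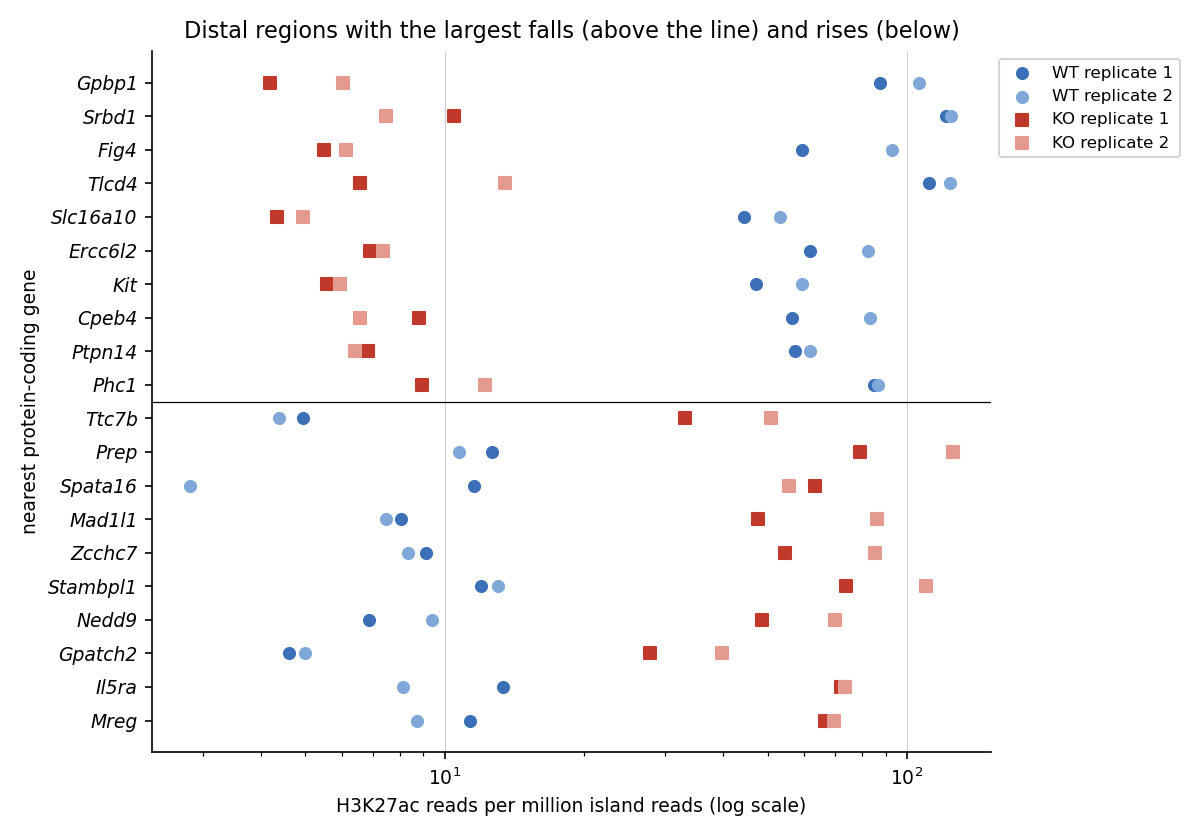
H3K27ac level in each library, on a log axis, for the 10 distal regions with the largest falls (above the line) and the 10 with the largest rises (below), labelled by nearest protein-coding gene. Circles are WT and squares KO libraries, and the genotypes do not overlap in any row.

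Under both scalings 47 genes were nearest to at least 3 regions that fell and 99 to at least 3 that rose. The size of this difference depended on the scaling, with 49 against 181 genes under island reads and 70 against 99 under TMM. The counts were not adjusted for the number of regions tested at each gene. Under both scalings all 5 regions of Armc9 fell, 4 of 5 at Nol4l, 6 of 7 at Ssbp2, 4 of 9 at Gse1 and 3 of 6 at Kit. Nol4l, a nuclear protein gene, had an intragenic region (chr2:153477801-153501400) with 172 and 157 rpm in WT and 46.2 and 57.1 rpm in KO (-1.67, SE 0.13, adjusted p = 1.9e-05), which also fell per covered length (-1.16, adjusted p = 0.031). Its gene-end region went from 58.3 and 40.4 rpm to 8.53 and 10.9 rpm (-2.35, SE 0.24). Gse1, a coregulator gene, held the steepest fall of its locus inside the gene (chr8:120286801-120302200), from 88.9 and 84.5 rpm to 9.96 and 12.1 rpm (-2.98, SE 0.16, adjusted p = 5.3e-06; per covered length -1.11, adjusted p = 0.111), beside broad regions that fell by less. Ssbp2 encodes a single-stranded DNA binding partner of LDB1 complexes, and its gene-end region (chr13:91450601-91495400) went from 282 and 258 rpm to 122 and 128 rpm (-1.11, SE 0.09, adjusted p = 3e-05), with -0.083 per covered length (adjusted p = 0.866). Leaving out single libraries took calls from these loci: without WT replicate 2, 2 of the 5 Armc9 regions and 3 of the 6 Ssbp2 regions kept their call under island-read scaling, and 3 of the Ssbp2 regions also did so when KO replicate 2 or WT replicate 1 was left out. All 4 called regions of Nol4l and all 4 of Gse1 kept theirs in each case.

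At Kit the fall was uneven along the locus. The gene-end region (chr5:75573801-75617800) went from 176 and 186 rpm to 139 and 136 rpm (-0.40, SE 0.09, adjusted p = 0.0087), a far smaller change than 114 kb upstream. Further upstream, 2 regions counted to Pdgfra fell as well: chr5:75374601-75384400 went from 28.5 and 31.7 rpm to 7.65 and 11.4 rpm (-1.67, SE 0.25), and chr5:75311801-75317800 from 9.54 and 12.7 rpm to 6.03 and 4.95 rpm (-1.02, SE 0.29). The latter was not called without WT replicate 2 or without KO replicate 2 (adjusted p = 0.132 and 0.110). Beyond the other end of Kit, chr5:75742601-75748200 went from 23.9 and 19.99 rpm to 13.3 and 10.3 rpm (-0.88, SE 0.25, adjusted p = 0.023), a call lost when KO replicate 2, WT replicate 1 or WT replicate 2 was left out (adjusted p = 0.114, 0.107 and 0.054). Next to it, the region at chr5:75723801-75741200 did not change beyond its spread (72.3 and 60.4 against 74.2 and 46.6 rpm, -0.13, adjusted p = 0.676). Lmo2, the bridging protein of the GATA and TAL1 complex, lost signal both at the gene and in a 50.4 kb region ending 37.1 kb away (chr2:103870401-103920800), which went from 268 and 278 rpm to 129 and 126 rpm (-1.10, SE 0.09, adjusted p = 2.5e-05). Its coverage went from 47.4 and 48.8 kb to 27.2 and 24.2 kb, and the change per covered length did not pass (-0.19, adjusted p = 0.617). Myc, the growth-promoting transcription factor, fell modestly at the gene (169 and 158 to 120 and 113 rpm, -0.48, SE 0.10, adjusted p = 0.0043) and more at 2 regions beyond it. These 2 lie between protein-coding genes, and whether they meet a non-coding gene was not examined. The region chr15:62036601-62048600 went from 42.1 and 52.7 rpm to 16.2 and 15.1 rpm (-1.60, SE 0.19, adjusted p = 0.000229), and chr15:62145601-62183000 from 114 and 134 rpm to 66.2 and 49.9 rpm (-1.09, SE 0.15, adjusted p = 0.000512). Both genotypes were apart in each of the 3 Myc regions that fell, and neither distal one passed per covered length (adjusted p = 0.745 and 0.748).

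Chd7, a chromatin remodeller gene, gained H3K27ac along its whole body. Of its 10 regions 8 rose and none fell. The calls of chr4:8798601-8806600 and chr4:8850001-8862800 were not kept in every fit that left out 1 library. Their log2 fold changes in these fits were 0.85 to 1.71 and 0.82 to 1.48. At the gene end (chr4:8689201-8695800) the level went from 38.7 and 24.3 rpm to 105 and 114 rpm (1.82, SE 0.19, adjusted p = 0.000112). The 3 intragenic regions next to it held 9.83 to 19.9 rpm in WT and 66.8 to 105 rpm in KO, with log2 fold changes of 2.51, 2.46 and 2.53 (SE 0.15, 0.15 and 0.20). Their coverage went from 4.0 to 6.2 kb in WT to 15.8 to 23.8 kb in KO, and none of the 3 passed per covered length (adjusted p = 0.454, 0.234 and 0.502). The 2 regions beyond the gene, over 40 kb away, were not called under both scalings (0.49 and 0.34). All 7 regions of Nedd9, a scaffold protein of integrin signalling, rose, and each kept its call without any 1 library. The strongest (chr13:41422601-41442800) went from 6.86 and 9.37 rpm to 48.6 and 70.0 rpm (2.85, SE 0.24, adjusted p = 3.6e-05), and the gene-end region from 107 and 109 rpm to 217 and 214 rpm (0.99, SE 0.09). Per covered length these changes were 0.31 and 0.47 (adjusted p = 0.625 and 0.195). At Cxcr4, the chemokine receptor that retains cells in marrow, the broad gene-end region was not called under both scalings (472 and 533 against 606 and 645 rpm, 0.31), and 6 of the 11 intergenic regions counted to it rose. The nearest of these (chr1:128629201-128661400) went from 27.7 and 34.0 rpm to 75.9 and 91.1 rpm (1.43, SE 0.16, adjusted p = 0.000136, and 0.23 per covered length, adjusted p = 0.710). Id2 encodes an inhibitor of E proteins, and its gene-end region (chr12:25092401-25101200) rose from 8.79 and 7.73 rpm to 49.9 and 29.7 rpm (2.28, SE 0.27, adjusted p = 0.000232, and 1.26 per covered length, adjusted p = 0.052), as did 4 of its 10 intergenic regions. Prkcb, the protein kinase C beta gene of B cell receptor signalling, had 5 of 6 regions risen. Foxp1, a forkhead factor of B cell development, had 7 of 14 risen and 1 fallen (chr6:99347801-99352600, 15.9 and 17.5 to 8.26 and 10.4 rpm, -0.84, adjusted p = 0.032, and -0.82 per covered length, adjusted p = 0.166). The Foxp1 fall was lost when KO replicate 1, WT replicate 1 or WT replicate 2 was left out (adjusted p = 0.183, 0.066 and 0.128), and the larger region it joins when islands within 1 kb are merged was higher (0.61).

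**Figure D5:**
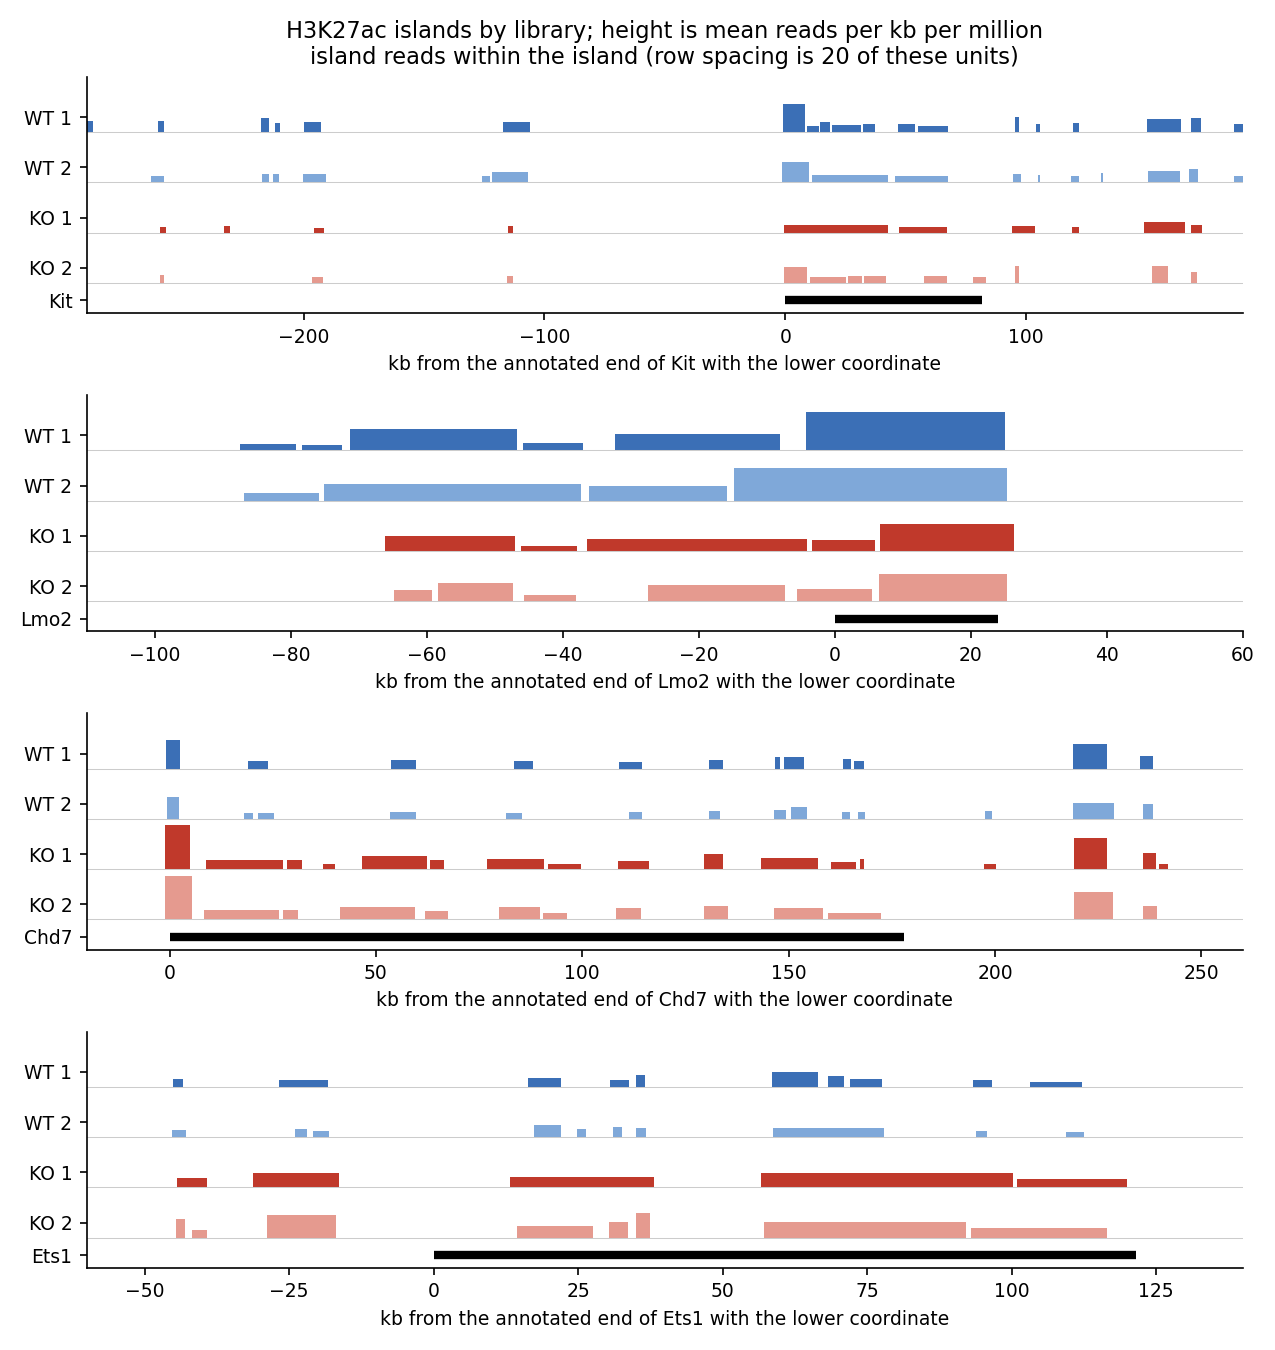
H3K27ac islands of each library at Kit, Lmo2, Chd7 and Ets1, by distance in kb from the annotated gene end with the lower coordinate; black bars are the genes and the height of a box is its mean reads per kb on the rpm scale. In KO the islands about 110 kb left of Kit and left of Lmo2 are shorter, and those along Chd7 and Ets1 are longer.

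The ETS family list, 18 transcription factor genes, had 27 distal tested regions, of which 10 rose and none fell (median log2 fold change 0.48). Of all distal regions 13.1% rose and 10.5% fell (median 0.18). Per covered length, 1 of the list's distal regions passed and none of its gene-end regions. When a library was left out, 9 or 10 of the list's distal rises kept their call. Ets1, a lymphoid and progenitor factor, contributed 4 of the 10. Its upstream region (chr9:32605001-32619800) went from 23.2 and 14.2 rpm to 82.6 and 109 rpm (2.38, SE 0.22, adjusted p = 6e-05) and was also higher per covered length (1.40, adjusted p = 0.039). Its gene-end region (chr9:32692801-32756200) went from 103 and 82.1 rpm to 317 and 312 rpm (1.77, SE 0.11, adjusted p = 9.5e-06), with coverage of 28.6 and 24.4 kb against 62.6 and 58.6 kb. Erg and Ets2, neighbours on chromosome 16, had 2 distal regions each that rose (1.09 and 1.41 at Erg, 1.43 and 1.84 at Ets2), and Elf2 and Elf4 had 1 each (1.004 and 0.55). Erg counts in the stem cell list as well. At gene ends of the list 4 of 15 regions rose, those of Ets1, Ets2, Fli1 and Spi1, and 1 fell, that of Elk3. Of all gene-end regions 11.0% rose and 11.3% fell. The region at Spi1, which encodes PU.1, went from 305 and 312 rpm to 446 and 433 rpm (0.51, SE 0.07, adjusted p = 0.000748).

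The GATA and erythroid list differed between gene ends and distal sites. Of its 25 gene-end regions 23 fell, 10 of them also per covered length, and none rose (median -0.995). Of all gene-end regions 11.3% fell and 11.0% rose (median 0.08). Of the list's 16 distal regions 3 fell, those at Ank1, Lmo2 and Sptb, and none rose (median -0.21). Of all distal regions 10.5% fell and 13.1% rose (median 0.18). The list's gene-end regions had a median width of 22200 bp and a median level of 123 rpm. Its distal regions had 6700 bp and 15.5 rpm. The share of regions called grew with both, and the contrast by position was not separated from them. Ank1 encodes the ankyrin of the red cell membrane skeleton, and its intragenic region (chr8:23026601-23064200) went from 178 and 230 rpm to 23.3 and 28.7 rpm (-2.98, SE 0.16, adjusted p = 5e-06), with coverage of 28.2 and 36.6 kb against 5.8 and 7.6 kb. Sptb, the red cell spectrin gene, had a smaller intragenic region that went from 18.2 and 19.4 rpm to 6.84 and 8.09 rpm (-1.34, SE 0.25). All 3 distal falls kept their call without any 1 library. The red cell marker sums given above moved in the same direction, but they come from the same libraries and are no separate evidence. In the megakaryocyte list none of 7 distal regions was called, while 5 of 9 gene-end regions fell and 1 rose (median -0.65), against 11.3% fallen, 11.0% risen and a median of 0.08 for all gene-end regions. The fall was largest at Vwf, the von Willebrand factor gene (181 and 177 to 39.0 and 39.3 rpm, -2.19, SE 0.11, adjusted p = 4.1e-06, but 0.31 per covered length, adjusted p = 0.513), and the rise was at Selp, the P-selectin gene (1.64).

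In the B cell list 7 of 10 distal regions rose and none fell (median 1.26), against 13.1% risen, 10.5% fallen and a median of 0.18 for all distal regions. None of the 7 passed per covered length, where the list's distal median was 0.03. At gene ends 12 of 16 rose with 1 fall, at Ikzf1 (median 1.42), against 11.0% and 11.3% of all gene-end regions, and 5 passed per covered length. Foxo1, a factor needed for early B cell development, had 3 of the 7, of which the strongest (chr3:52395601-52402000) went from 6.65 and 6.03 rpm to 24.7 and 36.4 rpm (2.27, SE 0.27, adjusted p = 0.000207). Pax5 had an intragenic region that went from 6.32 and 8.59 rpm to 21.9 and 30.5 rpm (1.80, SE 0.28, adjusted p = 0.000983, and 0.86 per covered length). Ebf1, a pioneer factor of the B lineage, had 2 intragenic regions at 8.57 to 15.4 rpm in WT and 15.2 to 33.5 rpm in KO (1.24 and 1.08, and 0.24 and -0.51 per covered length). Neither Ebf1 region was called without KO replicate 2 (adjusted p = 0.129 and 0.059) or without WT replicate 1 (adjusted p = 0.085 and 0.075). In the heavy chain locus near Adam6b, chr12:113425201-113432000 went from 77.8 and 76.6 rpm to 156 and 164 rpm (1.05, SE 0.10, adjusted p = 6.3e-05) over nearly the same covered length, and it passed per covered length (1.08, adjusted p = 0.031). The B cell marker sums moved the same way, but they share genes with this list, Pax5 and Ebf1 among them, and are no separate evidence. In each Foxo1, Pax5, Ebf1 and Adam6b region given here, each KO library exceeded both WT libraries.

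The stem cell list had 50 distal regions, of which 7 fell (14.0%) and 3 rose (median -0.03), against 10.5% fallen, 13.1% risen and a median of 0.18 for all distal regions. Of its 17 gene-end regions 6 fell and none rose (median -0.21), against 11.3% fallen, 11.0% risen and a median of 0.08 for all gene-end regions. The falls lay at Kit (2 regions), Prdm16, Mllt3, Runx1, Myb and Meis1. Prdm16, a regulator of stem cell maintenance, had an intragenic region (chr4:154539201-154544400) that went from 54.0 and 42.6 rpm to 6.30 and 7.91 rpm (-2.77, SE 0.23, adjusted p = 2.9e-05) and fell per covered length too (-1.97, adjusted p = 0.013). Mllt3, the AF9 gene, had one (chr4:87799401-87810800) that went from 61.7 and 75.2 rpm to 11.1 and 10.5 rpm (-2.66, SE 0.18, adjusted p = 1.1e-05). The midpoint of this 11.4 kb region lies 1.22 kb from an annotated Mllt3 start site, so the region holds that start site. The other Mllt3 region, at a gene end, did not differ (45.9 and 42.1 against 40.6 and 46.5 rpm). At Runx1 only 1 of 11 regions was called, 302 kb upstream (26.8 and 52.4 to 18.3 and 20.1 rpm, -1.06, adjusted p = 0.018), and that call was lost without WT replicate 2 (-0.48, adjusted p = 0.197). Without WT replicate 2, 3 of the 7 stem cell falls kept their call, and without WT replicate 1, 4 did. The rises were 2 at Erg and 1 at Msi2, an RNA-binding regulator of stem cells (6.65 and 12.2 rpm in WT against a mean of 46.8 ± 12.5 rpm in KO, SD, n = 2, log2 fold change 2.28, SE 0.30, adjusted p = 0.000366).

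The remaining lists held smaller counts at distal sites, to be read against 13.1% risen, 10.5% fallen and a median of 0.18 for all distal regions. In the dendritic cell list 2 of 13 fell and none rose: Zbtb46, a factor of conventional dendritic cells, went from 91.0 and 79.0 rpm to 10.6 and 12.6 rpm (chr2:181458001-181466000, -2.88, SE 0.17, adjusted p = 5.7e-06, and -1.57 per covered length, adjusted p = 0.019), and Flt3 changed by -0.71. In the growth and leukaemia list, with shares near those of all distal regions, 4 of 30 fell (2 at Myc, 1 each at Bcl2l1 and Myb, which the stem cell list also holds) and 3 rose (2 at Bcl2, 1 at Tet2). Without WT replicate 2 only 2 of those 4 falls were called, and without WT replicate 1 only 1 of the 3 rises. In the AP-1 and NF-kB list, stress and inflammation factors, 5 of 21 rose (2 at Fosl2, and 1 each at Nfkbia, Irf1 and Fos) and 2 fell (Jun and Nfkb1), with the Nfkb1 fall lost in 3 of the 4 fits that left out a library. The Fos rise was lost without KO replicate 2 or WT replicate 2. In the granulocyte and monocyte list 1 of 31 rose, at Gfi1 (0.87, but -0.064 per covered length), and at gene ends 5 of 20 rose and 1 fell, against 11.0% and 11.3% of all gene-end regions. In the eosinophil, basophil and mast cell list 1 of 7 rose, the Il5ra region above. In the T and NK cell list none of 7 was called. In the stromal and endothelial list 1 of 7 rose, at Cdh5 (2.19), and 2 fell, those counted to Pdgfra. In the COMPASS, PRC2 and coactivator list 2 of 13 fell, at Ep300, which encodes an acetyltransferase of lysine 27 (-1.44), and at Ezh2, the methyltransferase of lysine 27 (-0.70). Of the list's 19 gene-end regions 2 rose, both at Smarca4, and none fell, against 11.0% risen and 11.3% fallen of all gene-end regions. With islands within 1 kb merged, the larger region that takes in the Ep300 one had a log2 fold change of 0.00053. The Ezh2 call was lost without WT replicate 2 or KO replicate 1, and its change per covered length was 0.015.

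The regions were also set against UTX islands of wild-type progenitors, taken as present where both UTX libraries had an island and an IgG control library had none. That control is labelled as belonging to a BCOR immunoprecipitation. The IgG control labelled for UTX was not used. UTX was present at 38.3% of all tested regions, 30.03% of those that rose and 48.1% of those that fell. Among distal regions these shares were 12.2%, 10.6% and 22.2%. The share with UTX was larger at higher levels of H3K27ac, so the distal regions were also split by mean rpm, with the 5 equal classes set over all tested regions. Among the 732 distal regions in the fifth with the highest mean rpm, UTX was present at 41.3% of those that rose, 54.0% of those that fell and 56.0% of those not called. In the fifth with the lowest mean rpm the shares were 2.04%, 10.9% and 2.20%, the fallen ones being 92 regions.

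H3K27me3, the trimethylated form of the same lysine laid down by Polycomb, was measured in 4 further libraries of the same genotypes. Among the regions that rose, 84 (3.72%) met an H3K27me3 island in both WT libraries and in neither KO library, against 1.09% of all tested regions. Among those that fell, 29 (1.41%) met one in both KO libraries and in neither WT library, against 0.356% of all. The largest rises of the first kind, named after their values were seen, were at Slco4c1, Gm40011 and Elfn2. The Nucb2 region (chr7:116502601-116533200) went from 26.6 and 26.4 rpm of H3K27ac to 128 and 125 rpm (2.26, SE 0.12, adjusted p = 5.3e-06), while its H3K27me3 islands held 132 and 101 reads in WT and none in KO. Per covered length its H3K27ac change was 0.32 (adjusted p = 0.624). The steepest fall of the second kind was at the gene end of Cyth3, a gene for an exchange factor of ARF proteins (chr5:143620401-143661400), from 281 and 332 rpm to 32.5 and 63.2 rpm (-2.69, SE 0.24, adjusted p = 4.2e-05), where H3K27me3 islands held no reads in WT and 77 and 68 reads in KO, and the fall passed per covered length (-1.26, adjusted p = 0.012). Where a library has no island its reads are unknown, so these counts describe island calls.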

How the data were processed

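ChIP-seq of H3K27ac in 2 WT and 2 KO libraries was used. Per the submitters' processing notes, the authors called islands with SICER on build mm10; aligner, version and settings are not given in the sources used here. Each deposited value is a count of reads per island, with no normalization. Overlapping islands (at least 1 shared base) were merged and counts summed per region; only regions marked in each of the 4 libraries entered the test, since a library without an island has no count there. The test was edgeR 4.0.16 (R 4.3.3), quasi-likelihood, with island reads as library size, Benjamini-Hochberg adjustment over 18820 regions and a threshold of 0.05. On simulated data it recovered 75% of 2-fold and 100% of 4-fold changes (100 regions each) and called 9 of 18620 unchanged regions. The simulation gave all regions the same spread between libraries and changed far fewer regions than were called in the data. These rates therefore need not hold for the data. Alternatives were TMM, DESeq2 1.42.0, reads per covered length, island and read minimums, merging distance, gene-end windows, a replicate block and leaving out libraries. Nearest protein-coding genes came from RefSeq (GRCm38.p6); 17492 of 21887 had a start site in the promoter table. Members and 13 gene lists (237 genes, 236 of them matched) were chosen with earlier results of these data known. Named regions are the 10 largest distal changes per direction (genotypes not overlapping, mean of at least 20 rpm in the higher one), regions of the 10 genes per direction with most called regions (at least 3), up to 3 distal regions of highest level per listed gene, and Kdm6a, Kdm6b and Uty; other named regions, gene ends of lists and the Runx1, Adam6b and H3K27me3 examples included, were chosen after their values were seen. The smallest exact permutation p with 2 against 2 libraries is 0.333.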

Additional observations from a re-analysis of the deposited data

How the results depend on the processing

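Counts here are under island-read scaling (3268 higher, 2069 lower) unless another scaling is named. DESeq2, which set its own library scaling in place of island reads, gave 2099 higher (1060 distal, 1039 gene-end) and 2454 lower (1012 distal, 1442 gene-end). Falls thus outnumbered rises there, as under TMM scaling in edgeR. Requiring an island in at least 2 libraries, with absent islands counted as 0, gave 3753 higher and 4694 lower (distal 2367 and 3277), again with more falls. Islands of at least 100 reads left 1056 distal rises. Per covered length 94 were higher (31 distal, 63 gene-end) and 129 lower (55 distal, 74 gene-end). Leaving out 1 library each gave 1940 to 2689 higher and 1458 to 1804 lower, 1040 to 1372 distal higher and 612 to 867 distal lower, and 900 to 1449 gene-end higher and 846 to 986 gene-end lower. Island number per library (WT 29662 and 32167, KO 30143 and 26483) differed by -2602 and covered length by -4.17 Mb (exact two-sided permutation p = 0.667 for both), and with islands of at least 100 reads by 455 islands and 2.304 Mb (p = 1 for both). Of 135 named regions, 29 lost their call without at least 1 library and none turned; 106 kept it in every case. Per covered length 107 lost their call, and 14 turned: Gfi1 -0.064, Ebf1 -0.51, Blnk -0.35, Foxo1 -0.41, Ezh2 0.015, Armc9 0.32 and 0.084, Id2 -0.15, Nedd9 -0.58, Ssbp2 0.049 and 0.23, Chd7 -0.020 and -0.083, and Foxp1 -0.39. Merging islands within 1 kb turned Ep300 (0.00053) and 1 Foxp1 region (0.61). The cause of these changes was not tested. Same-numbered libraries deviated from their group means with a correlation of 0.047 over the regions. With 2 pairs this cannot decide whether they shared a batch or preparation. With the replicate block 3768 were higher and 2311 lower. In the simulated data 2-fold changes were missed in part.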
